A study of Rattus norvegicus with 16 samples.

Results

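The DNA replication and proliferation genes described here are 10 of the 26583 gene names on a rat expression array: Mcm2, Mcm3, Mcm4, Mcm5, Mcm6 and Mcm7, Pcna, Top2a, Ccnb1 and Ccnd1. They were taken by symbol and were chosen by their measured values in these rats, including their differences among the drug groups, so levels among drug groups are given below as descriptions with no p-value. A total of 13 probes carried these symbols, 1 for each of 7 genes and 2 each for Mcm2, Mcm4 and Top2a. All 13 passed the filter on dim probes, which kept a probe if some group had it well above background on each of its arrays, and a probe could pass through the group in which it was high. For each gene the probe with the brightest mean signal stands for the gene unless the dimmer probe is named.

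Hippocampal RNA of 16 adult male Sprague-Dawley rats had been hybridized singly, 1 rat per array, with tissue taken 24 h after severe fluid percussion injury, a pressure pulse onto the exposed dura that models traumatic brain injury (TBI), or at the equivalent time. Naïve rats (3 arrays) received no anesthesia or handling, Sham rats (2 arrays) were anesthetized and prepared without injury, and TBI rats (3 arrays) were injured and given no drug. Injured rats were also treated with PMI-006 (TBI+PMI, 250 mg/kg by oral gavage, 3 arrays), JM6 (TBI+JM6, 400 mg/kg by oral gavage, 3 arrays) or E33, named in the methods as estradiol (TBI+E33, 33 ug/kg, 2 arrays). Hippocampi had been microdissected, and no age beyond adult was given in the sources used here. The Naïve, Sham and TBI arrays had been scanned in 1 session (the control session) and the arrays of all 3 drug groups in another (the drug session), so a drug group and its session cannot be told apart from TBI. Between 16282 and 18245 probes were well above background on arrays of the control session and between 20259 and 24984 on those of the drug session. As the tissue is bulk, more cells of a type and more RNA per cell cannot be told apart.

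The products of these genes act at successive steps of cell division. Mcm2 to Mcm7 encode the subunits of the ring-shaped helicase that is loaded onto replication origins in G1 and unwinds DNA in S phase. Pcna encodes the sliding clamp that holds DNA polymerases on the template and also serves DNA repair, Top2a encodes a topoisomerase that untangles replicated chromosomes, Ccnb1 encodes cyclin B1, which drives entry into mitosis, and Ccnd1 encodes cyclin D1, which acts earlier, in G1. In the adult hippocampus dividing cells are few and include progenitors of the dentate gyrus and oligodendrocyte precursors, while microglia, astrocytes and cells entering from blood can divide after injury.

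The promoters of the helicase genes shared letters that the choice of genes did not use. Promoter windows of 8 of the 10 genes (250 bases before to 50 bases after the start, RefSeq, build GRCr8) were searched on both strands for TTTCCCGC, TTTCGCGC, TTTGCCGC and TTTGGCGC, forms of the motif bound by E2F factors, which may overlap each other. All 5 Mcm windows (Mcm2, Mcm3, Mcm5, Mcm6 and Mcm7) held at least 1 of them, the windows of Pcna, Top2a and Ccnb1 held none, and 2.14% of all 33469 promoter windows held one. CCAAT stood in 7 of the 8 windows and in 37.5% of all, and TTTGAA or TTCGAA, letters of the cell cycle homology region, in 3 of the 8 (Mcm2, Mcm7 and Top2a) and in 19.7% of all. Stretches of 60 bases that end before the start site are shown for 4 helicase genes, with the E2F letters in capitals, so that the shared core can be seen. They are from chr4:122918095-122918154 on the minus strand for Mcm2, chr19:13488753-13488812 on the plus strand for Mcm5, chr13:42404454-42404513 on the minus strand for Mcm6 and chr12:22163197-22163256 on the minus strand for Mcm7. The match is one of letters, and binding was not measured.
Mcm2: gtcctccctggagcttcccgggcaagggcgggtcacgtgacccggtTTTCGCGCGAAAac
Mcm5: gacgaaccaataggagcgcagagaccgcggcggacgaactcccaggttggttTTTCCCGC
Mcm6: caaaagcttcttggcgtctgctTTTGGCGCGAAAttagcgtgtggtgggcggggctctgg
Mcm7: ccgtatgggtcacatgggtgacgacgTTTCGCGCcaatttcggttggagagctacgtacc
In Mcm2 and Mcm6 the capitals cover 2 overlapping matches, 1 on each strand.

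Injured rats were first compared with uninjured ones, with surgery in both groups (TBI vs. Sham) or against unhandled rats (TBI vs. Naïve). The genes were chosen by their values in these same rats. The calls and p-values below therefore describe these arrays and are no independent test of injury. In TBI vs. Sham, Mcm2, Mcm3, Mcm5, Mcm6 and Mcm7 rose, by 1.61-fold (Mcm7) to 5.96-fold (Mcm3), and the other 5 genes did not pass the test (limma, Benjamini-Hochberg adjusted p over all probes under 0.05). The share of all tested probes called was 9.41% in either direction and 2.93% higher. In TBI vs. Naïve, 8 of the 10 genes rose, all but Mcm4 and Top2a, where 4.71% of all probes were called and 2.98% were higher. Every TBI array was above every Naïve array for 10 of 10 genes and above both Sham arrays for 9 of 10, all but Ccnd1, where 12.5% and 17.2% of all probes were higher in this way. The median log2 fold change of the 10 genes was 1.35 in TBI vs. Sham and 1.63 in TBI vs. Naïve, against -0.03 and 0.04 over all probes. Both comparisons use the same 3 TBI arrays, and no Sham array shared their slide. The counts of called genes moved with 1 array left out. In TBI vs. Sham they were 0 of 10 without Sham 1, 4 without Sham 2 and 1 without TBI 2 or TBI 3. In TBI vs. Naïve they were 3, 6 and 4 without Naïve 1, 2 or 3. They were 3 without TBI 2 and 4 without TBI 3 in TBI vs. Naïve. Without TBI 1 the counts rose to 7 in TBI vs. Sham and 10 in TBI vs. Naïve. With a normexp background correction, or with slide entered as a fixed block, 0 of 10 were called in either comparison, and with limma on the compared groups alone 0 were called in TBI vs. Sham and 1 in TBI vs. Naïve.

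**Figure D1:**
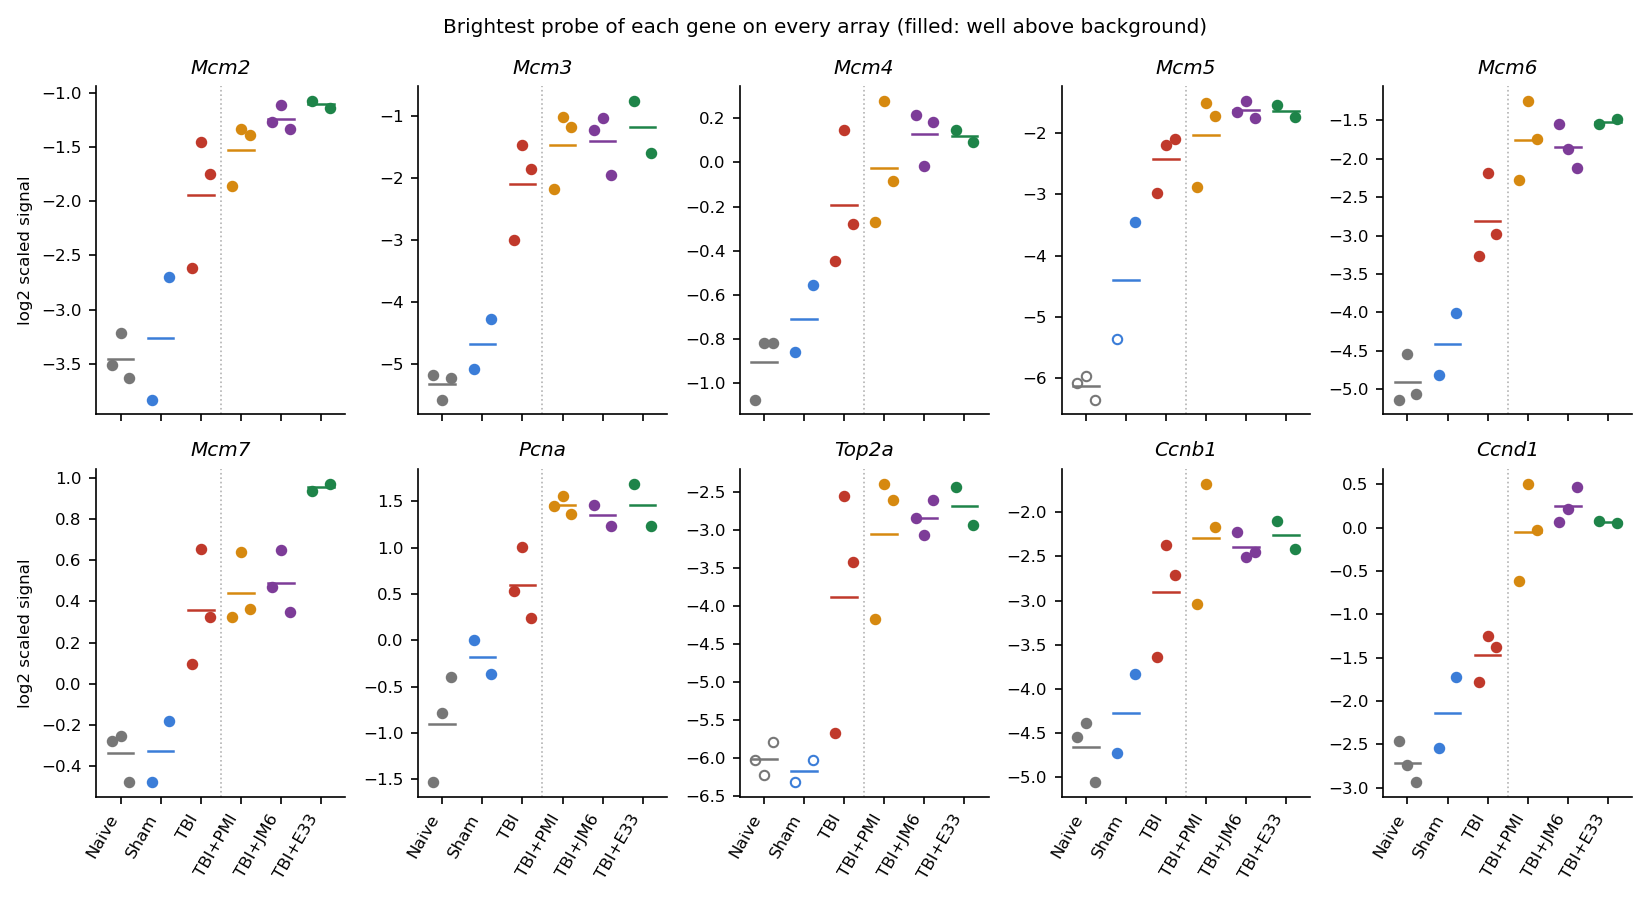
Log2 scaled signal of the brightest probe of each gene (vertical axes, one range per gene) on all arrays by group, where each point is 1 rat, filled if well above background, the bars are group means and the dotted line parts the control session from the drug session. TBI arrays sit above all Naïve arrays in every panel, Mcm5 and Top2a are not well above background on any Naïve array, and Pcna lacks 1 TBI+JM6 point because the spot on array 2 was marked as an outlier.

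Mcm5 was the helicase gene not above background in Naïve rats. All values are log2 of the signal relative to the 75th percentile of the array's probes well above background, so that 0 is that percentile. Mcm5 measured -6.08, -5.97 and -6.35 in Naïve, -5.36 and -3.45 in Sham and -2.98, -2.20 and -2.10 in TBI rats. It was well above background on 0 of 3 Naïve arrays, on 1 of 2 Sham arrays (Sham 2) and on all 3 TBI arrays, so the Naïve level is only a bound and TBI was at least 11.8-fold higher (adjusted p = 0.0025, limma). In TBI vs. Sham Mcm5 rose by 1.98 ± 0.49 (log2 fold change ± SE, adjusted p = 0.029). It was also the only one of the 10 genes called in Sham vs. Naïve (1.74 ± 0.49, adjusted p = 0.0493, limma). That difference has no exact size or minimum, since Sham 1 and the Naïve arrays were not above background. The share of all probes called there was 8.08%, and leaving out Naïve 1, 2 or 3 or Sham 2 ended the call.

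Mcm3 stood between -5.57 and -5.17 on the Naïve arrays, at -5.08 and -4.26 in Sham and at -3.00, -1.46 and -1.84 in TBI rats. The rise was 2.58 ± 0.48 against Sham (adjusted p = 0.011) and 3.22 ± 0.43 against Naïve (adjusted p = 0.0036). Mcm6 measured -5.14, -4.54 and -5.07 in Naïve, -4.82 and -4.01 in Sham and -3.27, -2.19 and -2.97 in TBI rats. It rose by 1.60 ± 0.37 against Sham (adjusted p = 0.022) and by 2.10 ± 0.33 against Naïve (adjusted p = 0.0069). For both genes TBI did not overlap either group, and TBI 1 was the lowest of the TBI arrays.

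Mcm2 was measured by 2 probes of the same transcript on chromosome 4 (rn4, minus strand), at 122978031 to 122978090 and, for the dimmer probe, within 122981286 to 122981436. The sequences of both are shown because they gave different levels.
Mcm2, brighter probe: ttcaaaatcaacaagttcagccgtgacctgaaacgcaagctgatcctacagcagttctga
Mcm2, dimmer probe: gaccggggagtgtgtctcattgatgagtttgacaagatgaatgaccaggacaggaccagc
By the brighter probe Mcm2 measured -3.51, -3.21 and -3.63 in Naïve, -3.83 and -2.70 in Sham and -2.62, -1.45 and -1.75 in TBI rats. Sham 2 lay next to TBI 1, TBI did not overlap either group, and Sham overlapped Naïve. The rise was 1.32 ± 0.35 against Sham (adjusted p = 0.036) and 1.51 ± 0.32 against Naïve (adjusted p = 0.020). The dimmer probe was well above background on 1 of 3 Naïve, 1 of 2 Sham and all 3 TBI arrays, and gave 1.12 ± 0.43 and 1.17 ± 0.39, neither of them called (adjusted p = 0.119 and 0.103).

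Mcm7 and Mcm4 had the brightest signals and the smallest differences of the helicase genes. Mcm7 lay between -0.48 and -0.26 in Naïve, at -0.47 and -0.18 in Sham and at 0.10, 0.65 and 0.32 in TBI rats, and rose by 0.69 ± 0.19 against Sham (adjusted p = 0.044) and 0.70 ± 0.17 against Naïve (adjusted p = 0.039). Mcm4 measured -1.07, -0.82 and -0.82 in Naïve, -0.86 and -0.56 in Sham and -0.44, 0.15 and -0.28 in TBI rats. Its differences of 0.52 ± 0.21 and 0.71 ± 0.19 did not pass the test (adjusted p = 0.148 and 0.053). The levels of different probes cannot be ranked as amounts of RNA, since each probe binds with its own strength.

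Pcna and Top2a act at the fork and behind it. Pcna measured -1.53, -0.78 and -0.40 in Naïve, 0.01 and -0.37 in Sham and 0.53, 1.0 and 0.24 in TBI rats. It rose by 1.5 ± 0.28 against Naïve (adjusted p = 0.017), and its difference of 0.77 ± 0.32 against Sham was not called (adjusted p = 0.148). Top2a was well above background on no Naïve and no Sham array and on all 3 TBI arrays, where it measured -5.67, -2.55 and -3.42. TBI 1 was thus close to the Naïve range of -6.23 to -5.79, and TBI 2 and TBI 3 were far above it. Against these bounds Top2a was at least 4.59-fold higher than in Sham and at least 4.32-fold higher than in Naïve rats, but with the spread of the TBI arrays (SD 1.61, n = 3) neither difference was called (adjusted p = 0.060 and 0.075). Without TBI 1 it was called in both. The dimmer Top2a probe was well above background on 0 of 3 TBI arrays and, of the control session, on Naïve 1 only.

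Both cyclin genes were highest on TBI 2 among the control-session arrays. Ccnb1 measured -4.55, -4.38 and -5.06 in Naïve, -4.72 and -3.83 in Sham and -3.64, -2.37 and -2.71 in TBI rats. It rose by 1.76 ± 0.38 against Naïve (adjusted p = 0.024), and its difference of 1.37 ± 0.43 against Sham was not called (adjusted p = 0.062). Ccnd1 measured -2.46, -2.74 and -2.94 in Naïve, -2.54 and -1.73 in Sham and -1.79, -1.25 and -1.38 in TBI rats. Sham 2 was above TBI 1, so that TBI and Sham overlapped. Ccnd1 rose by 1.24 ± 0.29 against Naïve (adjusted p = 0.029) and differed by 0.66 ± 0.32 from Sham (adjusted p = 0.21).

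**Figure D2:**
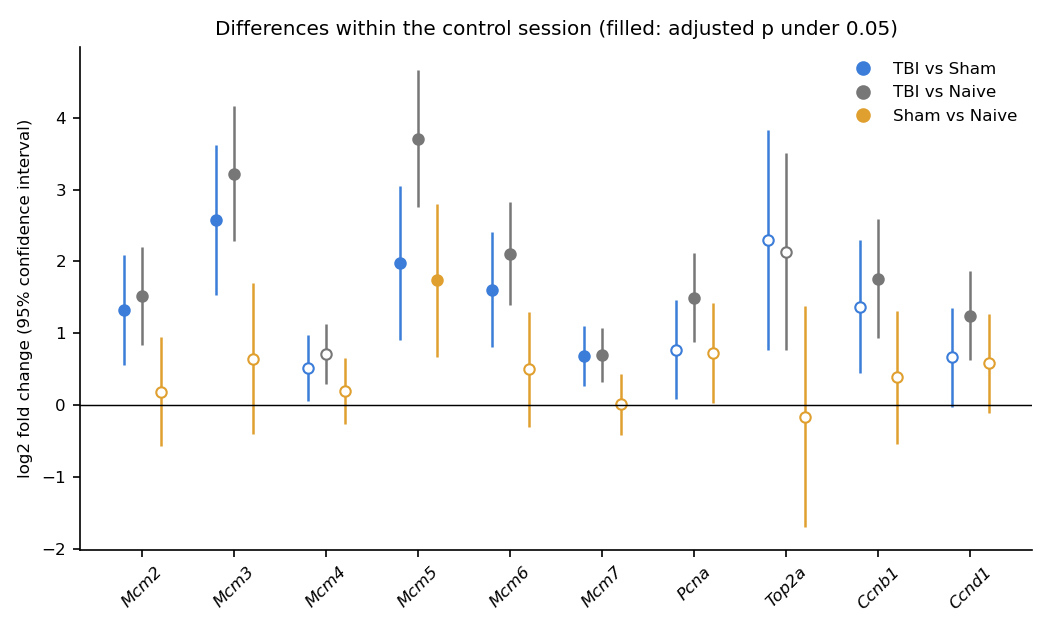
Log2 fold changes of the 10 genes (vertical axis) with their 95% confidence intervals for the 3 comparisons of the control session, filled where the limma adjusted p was under 0.05. Mcm3 lies 3.22 above Naïve, and the points of Mcm5 and Top2a against Naïve and of Top2a against Sham rest on levels not above background and mark no exact difference.

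The same arrays were high or low for most of the genes. TBI 2 was the highest of the 8 control-session arrays for 9 of the 10 genes, with a median rank of 1, and TBI 1 had a median rank of 3, just ahead of Sham 2 with 4. Sham 2 exceeded Sham 1 by 1.13 for Mcm2, 0.89 for Ccnb1 and 0.82 for Ccnd1, while Pcna was 0.37 lower on Sham 2. TBI arrays and Naïve 3 shared a slide, and on it the TBI mean exceeded Naïve 3 by 3.12 for Mcm3, 2.26 for Mcm6, 2.15 for Ccnb1, 1.69 for Mcm2, 0.99 for Pcna and 0.84 for Mcm7. On the slide with both Sham arrays and Naïve 1 and 2, the Sham mean minus the Naïve mean was 0.98 for Pcna, 0.10 for Mcm2 and -0.06 for Mcm7. No slide held both TBI and Sham arrays, so injury and slide cannot be told apart in TBI vs. Sham without the Naïve arrays. Under other ways of processing, the Pcna difference in TBI vs. Sham ranged from 0.01 to 0.96.

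Markers of other cell types also differed among these arrays. Of 12 microglia and macrophage markers, 12 were well above background on every control-session array, and their summed scaled signal was 19.0 to 21.6 in Naïve, 17.9 and 32.7 in Sham and 31.8 to 39.3 in TBI rats. Sham 2 was the higher Sham array in this sum as well. In TBI vs. Sham 3 of these markers rose and 2 fell, and in TBI vs. Naïve 2 rose. The summed signal of 8 tested markers of blood leukocytes was 0.7 to 1.0 in Naïve, 1.2 and 1.7 in Sham and 1.6, 7.5 and 1.7 in TBI rats, with the highest value on TBI 2. In TBI vs. Sham 3 of the 8 rose, and in TBI vs. Naïve 5. Cd3g was above background on no array of the control session, and S100a8 on no Naïve array, 1 Sham array and all 3 TBI arrays. Of 8 progenitor and neuroblast markers, 1 rose in each comparison and 1 fell in TBI vs. Naïve, and their summed signal was 3.1 to 3.6 in Naïve, 3.5 and 3.9 in Sham and 3.2 to 4.2 in TBI rats. The summed signal of 8 oligodendrocyte precursor markers, none of them called, was 16.1 to 22.9 in Naïve, 23.2 and 35.0 in Sham and 18.2 to 22.3 in TBI rats. Some markers of resident cells fell in TBI vs. Sham, 4 of 8 for oligodendrocytes (median log2 fold change -0.93), 2 of 9 for neurons (-0.68) and 2 of 6 for dentate granule cells (-0.63), with 0 of each list higher. In TBI vs. Naïve 0, 0 and 1 of them fell and the medians were -0.31, -0.44 and -0.52. Of 8 astrocyte markers 0 were called in TBI vs. Sham, and 1 rose and 1 fell in TBI vs. Naïve. Of 8 endothelial markers 1 fell in TBI vs. Sham and 0 were called in TBI vs. Naïve. Choroid plexus markers, from tissue next to the hippocampus, had a summed signal of 80.7 on Naïve 2, 127.6 on Sham 1 and 167.2 on TBI+PMI 1 and of 1.0 to 9.5 on the other 13 arrays. The part of any of these cells in the rise of the replication genes was not tested.

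Other genes of the cell cycle were read from lists made up by function, with the 10 genes left out. Of the 87 of these genes that were tested, 11 rose and 0 fell in TBI vs. Sham (median log2 fold change 0.41), and 20 rose and 0 fell in TBI vs. Naïve (median 0.80). Of all probes 2.93% and 2.98% were called higher and 6.49% and 1.73% lower in these comparisons. Origin licensing and firing had 4 of 11 genes higher in TBI vs. Sham and 6 of 11 in TBI vs. Naïve. Cdc6, which loads the helicase at origins, measured -5.36, -3.31 and -3.95 in TBI and -7.27 and -5.78 in Sham rats and rose by 2.32 ± 0.56 (adjusted p = 0.025), with 1 of 2 Sham arrays above background. Gmnn, which encodes geminin, the inhibitor that blocks reloading of the helicase, was above background on TBI 2 and TBI 3 and on no Naïve or Sham array. Its TBI mean was 2.5-fold the Naïve bound (limma adjusted p = 0.014) and 2.90-fold the Sham bound (adjusted p = 0.028). Neither fold is a minimum, since that mean includes TBI 1, which was not above background. Mcm10 was above background on 2 of 3 TBI, 1 of 3 Naïve and 0 of 2 Sham arrays and was not called.

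Nucleotide supply had 2 of 7 genes higher in TBI vs. Sham and 3 of 7 in TBI vs. Naïve. Rrm2, the regulated subunit of ribonucleotide reductase, measured -2.04, 0.71 and -0.09 in TBI, -3.80 and -2.51 in Sham and -3.29 to -3.08 in Naïve rats. It rose by 2.68 ± 0.67 against Sham (adjusted p = 0.029) and 2.72 ± 0.60 against Naïve (adjusted p = 0.025). Rrm1, the other subunit, was called only in Sham vs. Naïve of the control-session comparisons, at -3.14 and -2.52 in Sham against -4.50 to -4.19 in Naïve rats (a rise of 1.55 ± 0.28, adjusted p = 0.0084). In Sham vs. Naïve 6 of the 87 genes rose and 0 fell, where 6.57% of all probes were called higher. Aurkb, a kinase of chromosome segregation, was at least 3.37-fold higher (adjusted p = 0.0083), and Dck, a kinase of nucleotide salvage, was called although not above background on any Sham or Naïve array.

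Of 22 fork and polymerase genes, 2 rose in TBI vs. Sham and 1 in TBI vs. Naïve, with medians of 0.23 and 0.40. The shares of all probes called higher were 2.93% and 2.98%. Among 13 cyclins, kinases and E2F genes of G1 and S phase, 1 rose in TBI vs. Sham and 2 in TBI vs. Naïve. Ccna2, the cyclin of S and G2 phase, measured -3.93, -1.74 and -2.31 in TBI and -5.61 and -4.30 in Sham rats, a rise of 2.29 ± 0.58 (adjusted p = 0.029). Ccnd2, the relative of Ccnd1, gave 0.07 ± 0.25 against Sham and -0.42 ± 0.22 against Naïve, neither of them called (adjusted p = 0.89 and 0.30). Of 27 genes of mitosis, 2 rose in TBI vs. Sham and 8 in TBI vs. Naïve, where their median was 1.58. Ccnb2, a relative of Ccnb1, was above background on 2 of 3 TBI and no Naïve arrays. Its TBI mean was 2.18-fold the Naïve bound (limma adjusted p = 0.047), which is no minimum, since TBI 1 was not above background. None of 7 CDK inhibitor genes was called in either comparison, and Cdkn1a, which encodes p21, gave -0.07 ± 0.22 against Sham and 0.19 ± 0.20 against Naïve. Mki67 and Cdk1 had no probe under these symbols.

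**Figure D3:**
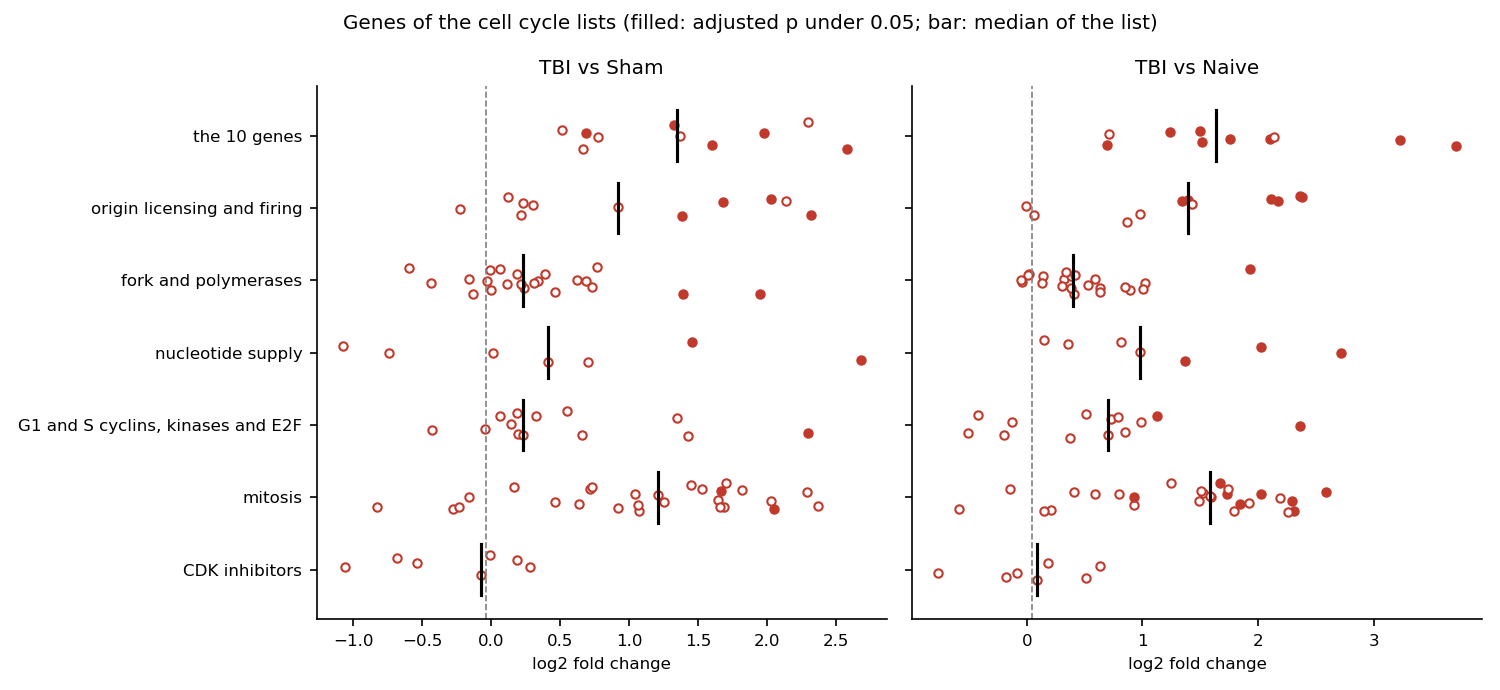
Log2 fold change (horizontal axis) of each tested gene by list in TBI vs. Sham and TBI vs. Naïve, filled where the limma adjusted p was under 0.05, with the median of each list as a bar and the median of all probes dashed. In TBI vs. Naïve mitosis genes reach a median of 1.58 and CDK inhibitors 0.09, against 0.04 over all probes.

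Within the drug session the levels of the 10 genes are given as a description, since differences among drugs entered their choice. By the brighter probes 0 of 10 genes were called in TBI+JM6 vs. TBI+PMI, TBI+JM6 vs. TBI+E33 and TBI+PMI vs. TBI+E33 by limma, where 0.0131%, 0.0175% and 0.11% of all probes were called. At an unadjusted p under 0.05 the numbers were 0, 1 and 1, the methods' t-test after adjustment gave 0 in each, and over all 13 probes 1, 0 and 1 were called, each time the dimmer probe of Mcm4. Nothing is read from these counts, since the choice of genes used these comparisons. That Mcm4 probe also passed the filter on dim probes only through the TBI+JM6 arrays, where it was high. The median differences of the 10 genes were 0.10, -0.14 and -0.26, against 0.18, -0.08 and -0.26 over all probes. All 10 genes were lower in TBI+PMI than in TBI+E33 rats on average, by 0.51 for Mcm7 and by less than 0.01 for Pcna and with the others between, but under quantile normalization 4 of the 10 were higher and the median difference was -0.05. No slide held both TBI+PMI and TBI+E33 arrays, so drug and slide cannot be told apart between these groups. Mcm7 measured 0.94 and 0.97 in TBI+E33, 0.32, 0.64 and 0.36 in TBI+PMI and 0.47, 0.65 and 0.35 in TBI+JM6 rats, and TBI+E33 did not overlap either group. TBI+E33 also did not overlap TBI+PMI for Mcm2 or TBI+JM6 for Mcm6. The share of all probes that separated in this way was not computed for the drug groups, so nothing is read from it. Ccnd1 measured -0.62, 0.51 and -0.03 in TBI+PMI, 0.06, 0.22 and 0.47 in TBI+JM6 and 0.08 and 0.05 in TBI+E33 rats, and the groups overlapped.

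Within the drug session TBI+PMI 1 was the lowest of the 8 arrays for 9 of the 10 genes, and TBI+PMI 2 was the highest for 5. TBI+PMI 1 also had the highest choroid plexus signal. Of the control-session arrays high in that signal, Sham 1 had a median rank of 6.5, against 4 for Sham 2. Naïve 2 had a median rank of 5.5, against 6 for Naïve 1 and 7 for Naïve 3. A link was not tested. Top2a measured -4.17, -2.39 and -2.60 in TBI+PMI rats and stood between -3.06 and -2.42 in TBI+JM6 and TBI+E33 rats. Ccnb1 measured -3.04, -1.68 and -2.17 in TBI+PMI rats and lay between -2.51 and -2.10 in the others. Mcm3 measured -2.18, -1.01 and -1.17 in TBI+PMI, -1.22, -1.03 and -1.95 in TBI+JM6 and -0.75 and -1.60 in TBI+E33 rats. Pcna measured 1.45, 1.56 and 1.37 in TBI+PMI, 1.69 and 1.23 in TBI+E33 and 1.46 and 1.24 on the 2 usable TBI+JM6 arrays, and its value on TBI+JM6 2 was left out of every fit.

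The dimmer Mcm4 probe behaved unlike the other 12. It lies on chromosome 11 (rn4, plus strand) from 87182084 to 87182143, ahead of the brighter probe at 87183282 to 87183341 of the same transcript, and its sequence is shown because it carries the only drug difference of this size among the 13 probes.
Mcm4, dimmer probe: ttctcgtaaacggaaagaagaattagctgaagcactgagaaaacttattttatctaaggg
It measured -3.77, -4.43 and -4.76 in TBI+JM6, -4.91 and -3.67 in TBI+E33 and -7.63, -7.59 and -7.29 in TBI+PMI rats. It was well above background on 3 of 3 TBI+JM6 arrays, 1 of 2 TBI+E33 arrays, 0 of 3 TBI+PMI arrays and 0 of 8 arrays of the control session. Against the bound its TBI+JM6 level exceeded TBI+PMI by at least 3.11-fold. Its TBI+E33 mean was 3.17-fold that bound, which is no minimum, since TBI+E33 1 was not above background. The probe passed the filter on dim probes only through the TBI+JM6 arrays. TBI+JM6 1 shared its slide with the 3 TBI+PMI arrays, and on that slide it alone was above background. The brighter Mcm4 probe measured -0.27, 0.28 and -0.08 in TBI+PMI, 0.21, -0.02 and 0.18 in TBI+JM6 and 0.15 and 0.09 in TBI+E33 rats, and overlapped among the groups. The 2 probes of Mcm4 thus disagreed, and no cause was tested.

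**Figure D4:**
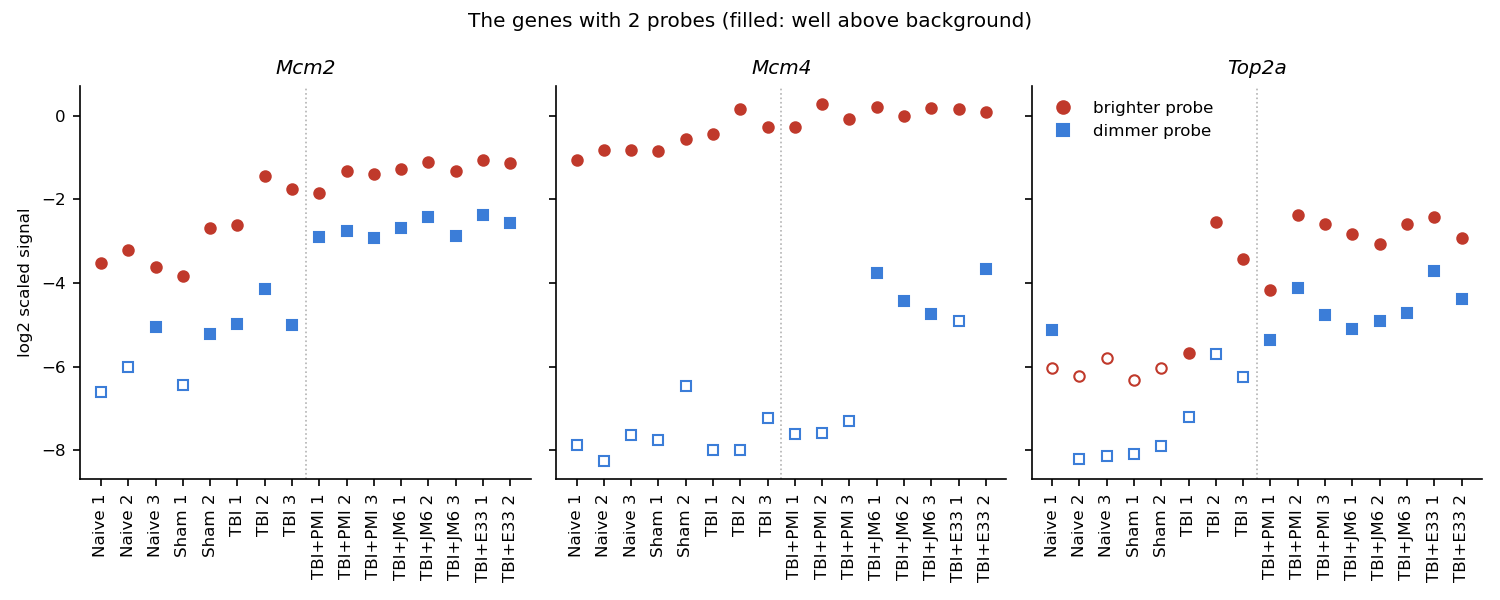
Log2 scaled signal (vertical axis) of both probes of Mcm2, Mcm4 and Top2a on each array, filled where well above background, with the dotted line between the control session and the drug session. The dimmer Mcm4 probe reaches -4.91 to -3.67 on TBI+JM6 and TBI+E33 arrays and stays at -6.47 or lower on the other arrays, while the brighter probe shows no such step.

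Against untreated TBI rats the levels of the drug groups depended on how the arrays were scaled. Over all probes the median log2 fold change was 0.99 in TBI+JM6, 0.79 in TBI+PMI and 1.08 in TBI+E33 vs. TBI, and the medians of the 10 genes were 0.73, 0.63 and 0.85, below these. Under quantile normalization, which gives all arrays one distribution, the medians of the 10 genes were -0.17, -0.25 and -0.05. With the 75th percentile of probes above background, 3, 3 and 5 of the 10 genes were called higher in TBI+JM6, TBI+PMI and TBI+E33 vs. TBI, where 70.1%, 56.7% and 70.3% of all probes were called. Under quantile normalization 2, 0 and 0 were called, Ccnd1 higher and Mcm7 lower in TBI+JM6 rats. Of all probes, 6208 of 22826, 4377 of 22826 and 4658 of 22823 were called under that normalization. The 3 comparisons share the TBI arrays, and leaving out 1 of them moved the first counts: without TBI 1 they were 1, 1 and 2, without TBI 2 they were 6, 4 and 7, and without TBI 3 they were 1, 1 and 3. They also fell to 1 without TBI+JM6 1, to 2 without TBI+JM6 2 or TBI+JM6 3, to 1 without TBI+PMI 2, to 2 without TBI+E33 1 and to 3 without TBI+E33 2. Scaled to the 75th percentile of probes above background, the summed signal of blood leukocyte markers was 6.9 to 14.7 on the drug-session arrays. It was 1.6 to 7.5 on the TBI arrays. This rise also depended on the scaling. Over the 8 markers, medians against TBI were 1.71 (TBI+JM6), 1.81 (TBI+PMI) and 1.74 (TBI+E33) with that percentile. Quantile normalization lowered these medians to 0.57, 0.11 and 0.54, with 4, 4 and 5 of the 8 markers above 0. The part of leukocytes in the levels of the 10 genes was not tested.

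Ccnd1 was above its TBI level in all 3 drug groups under each of the 3 scalings shown. It measured -1.79, -1.25 and -1.38 in TBI rats and -0.62 to 0.51 on the 8 arrays of the drug session, without overlap, and its log2 fold changes were 1.72 ± 0.29, 1.43 ± 0.29 and 1.54 ± 0.32 in TBI+JM6, TBI+PMI and TBI+E33 rats. Under quantile normalization they were 0.99, 0.84 and 0.77, of which the first was called (adjusted p = 0.022, 0.053 and 0.097). Mcm7 turned from 0.13, 0.08 and 0.60 to -0.51, -0.41 and -0.05, and Mcm4 from 0.32, 0.17 and 0.31 to -0.37, -0.38 and -0.41. Mcm6 and Pcna, called in all 3 groups under the first scaling, were not called in any under quantile normalization, with Mcm6 at -0.0011, 0.27 and 0.30 and Pcna at 0.13, 0.39 and 0.25. The drug and the session cannot be told apart in any of these values.

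**Figure D5:**
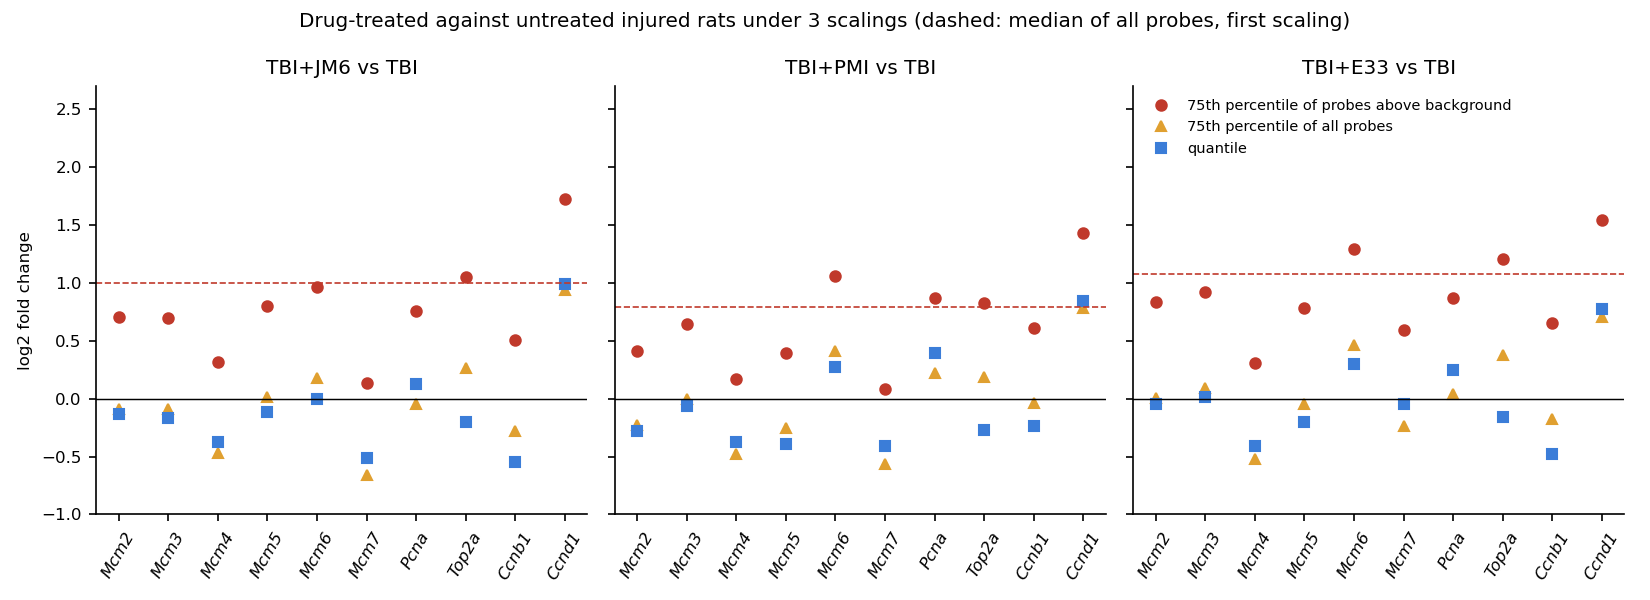
Log2 fold changes of the 10 genes (vertical axis) in TBI+JM6, TBI+PMI and TBI+E33 vs. TBI under 3 scalings of the arrays, with the median of all probes under the first scaling dashed. Most genes move from above 0 to near or below 0 when the scaling changes, while Ccnd1 stays between 0.71 and 1.72.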

How the data were processed

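Rat hippocampal RNA had been hybridized to single-colour Agilent arrays, 1 rat per array, and the methods give 3 rats per group. The authors deposited scanner files with a background-subtracted intensity per spot from Agilent Feature Extraction 9.5.3.1, and a table of 1 ratio per probe and array relative to the 75th percentile, whose values follow one distribution on all arrays. Which of the 2 amplification kits named in the labels was used for which rat was not stated. The route of E33 was subcutaneous in the labels and intraperitoneal in the methods.

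The 42877 non-control spots gave 30367 probes as means of unflagged spots, which were divided by the 75th percentile of the array's probes well above background, and put on the log2 scale. The 22827 probes that some group had well above background on each of its arrays entered 1 limma model of 6 groups over 16 arrays (10 residual degrees of freedom), with Benjamini-Hochberg adjustment over all probes. A probe well above background on no array of a group gives a bound. On each such array the bound is the higher of the probe's signal and the array's dimmest signal well above background. The mean of the brighter group is set against it, with "at least" where all arrays of the brighter group were well above background. Named genes were the 10 genes with every probe, 7 fixed cell cycle genes, and the 3 called genes of largest rise and largest fall from the cell cycle lists in each comparison within a session. The members, lists and tests were chosen with earlier results of these data known. As alternatives, arrays were scaled by quantile normalization or by a 75th percentile of all their probes, background was corrected by normexp (offset 50), the filter was dropped or set over all arrays, and the authors' table was fitted. In others only the groups compared were fitted, slide was added as a fixed or random block, replicate number was added as a block, a gene's probes were averaged, each array was left out, or the methods' t-test was run (over 1.2-fold at an unadjusted p under 0.05). Replicates were separate rats. Tools were limma 3.58.1 and the R package data.table, version 1.17.8 (R 4.3.3), and pandas 2.3.3, numpy 2.4.6 and matplotlib 3.10.9 (Python 3.11.15). The model was tested on simulated data. The number of arrays limits the precision. Promoter sequences are those of RefSeq, GRCr8, and Mcm4 and Ccnd1 have no entry in the table used.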

Additional observations from a re-analysis of the deposited data

How the results depend on the processing

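The number of the 10 genes called moved with the processing, and the cause was not tested. In TBI vs. Sham, where 5 were called, the number was 0 with normexp, with slide as a fixed block, with only the groups compared in the fit and by the methods' t-test after adjustment, 1 by that test unadjusted, 3 with no filter, and 0 to 7 with 1 array left out. In TBI vs. Naïve, with 8 called, it was 0 with normexp, with slide as a fixed block and by the adjusted t-test, 1 with only the groups compared, and 3 to 10 with 1 array left out. The single call of Sham vs. Naïve, Mcm5, became 0 under quantile normalization, scaling by all probes, normexp and no filter on dim probes. It was also 0 in the authors' table, with the groups compared alone, with a fixed slide block and by both forms of the t-test. With 1 array left out it was 0 to 1. The filter over all arrays tested only 7 of the 10 genes, of which 0 were called. It left Mcm5 out, so that gene could not be called there. Against TBI the 3 (TBI+JM6), 3 (TBI+PMI) and 5 (TBI+E33) called genes became 2, 0 and 0 under quantile normalization, 3, 3 and 1 when scaled by all probes, 1, 1 and 0 with normexp, 2, 1 and 0 in the authors' table, 3, 2 and 3 in fits of the groups compared, 5, 4 and 7 with probes averaged, 1, 2 and 1 by the unadjusted t-test and 1, 1 and 1 after adjustment, and ranged over 1 to 6, 1 to 4 and 2 to 7 with 1 array left out. Among drugs the count of 0 became 1 in TBI+PMI vs. TBI+E33 with probes averaged and 1 in TBI+JM6 vs. TBI+E33 and in TBI+PMI vs. TBI+E33 by the unadjusted t-test, and stayed 0 to 0 with 1 array left out. A fixed slide block could not be fitted for drug groups against TBI, which share no slide. With slide as a random block (correlation -0.087) 7 and 10 genes were called in TBI vs. Sham and TBI vs. Naïve.

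The replicate numbers did not pair the rats, and with the replicate block 5, 8 and 1 genes became 5, 9 and 1 (TBI against Sham, TBI against Naïve, Sham against Naïve), and 3, 3 and 5 became 3, 3 and 4 against TBI. Calls over all probes, 2146 in TBI vs. Sham and 1074 in TBI vs. Naïve, were 4 and 40 with normexp, 31 and 43 with a fixed slide block, 10 and 15 with only the groups compared and 370 to 4069 and 283 to 2038 with 1 array left out.

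Quantile normalization turned log2 fold changes against TBI below 0 in TBI+JM6 (Ccnb1 -0.55, Mcm2 -0.13, Mcm3 -0.17, Mcm4 -0.37, Mcm5 -0.12, Mcm6 -0.0011, Mcm7 -0.51 and Top2a -0.21), in TBI+PMI (Ccnb1 -0.24, Mcm2 -0.28, Mcm3 -0.067, Mcm4 -0.38, Mcm5 -0.39, Mcm7 -0.41 and Top2a -0.27) and in TBI+E33 (Ccnb1 -0.48, Mcm2 -0.049, Mcm4 -0.41, Mcm5 -0.20, Mcm7 -0.049 and Top2a -0.16) and, in Sham vs. Naïve, Mcm2 -0.0033 and Mcm7 -0.096. Scaling by all probes turned log2 fold changes against TBI below 0 in TBI+JM6 (Ccnb1 -0.28, Mcm2 -0.087, Mcm3 -0.0898, Mcm4 -0.47, Mcm7 -0.66 and Pcna -0.048), in TBI+PMI (Ccnb1 -0.036, Mcm2 -0.23, Mcm3 -0.000831, Mcm4 -0.48, Mcm5 -0.25 and Mcm7 -0.56) and in TBI+E33 (Ccnb1 -0.18, Mcm4 -0.52, Mcm5 -0.050 and Mcm7 -0.23) and, in Sham vs. Naïve, Mcm7 -0.11. The authors' table turned log2 fold changes against TBI below 0 in TBI+JM6 (Ccnb1 -0.54, Mcm2 -0.12, Mcm3 -0.16, Mcm4 -0.36, Mcm5 -0.11, Mcm7 -0.50 and Top2a -0.24), in TBI+PMI (Ccnb1 -0.23, Mcm2 -0.26, Mcm3 -0.052, Mcm4 -0.35, Mcm5 -0.35, Mcm7 -0.38 and Top2a -0.27) and in TBI+E33 (Ccnb1 -0.45, Mcm2 -0.028, Mcm4 -0.39, Mcm5 -0.19, Mcm7 -0.035 and Top2a -0.17) and, in Sham vs. Naïve, Mcm2 -0.011 and Mcm7 -0.0954. With probes averaged, Mcm4 was -0.055 in TBI vs. Sham, and with normexp Mcm7 was -0.0402 in TBI+PMI vs. TBI. In Sham vs. Naïve the replicate block gave Mcm7 -0.041 and Top2a 0.010, the fixed slide block Mcm7 -0.063, leaving out Naïve 3 Mcm7 -0.063 and leaving out Sham 2 Ccnb1 -0.060, Mcm2 -0.38 and Mcm7 -0.14, the lowest values with 1 array left out, against the highest without Sham 1, 0.83, 0.75 and 0.15. In TBI+PMI vs. TBI, Mcm7 was -0.048 and Top2a -0.067 without TBI 1 and Mcm7 -0.016 without TBI+PMI 2, and the highest values, 0.23 and 1.49, were those without TBI 2. In TBI vs. Naïve 0 of the values for the 10 genes turned sign. Signal over background limits Mcm5 and Top2a, which were at background in Naïve rats.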
